A study of Mus musculus with 10 samples.

Results

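Interferon-stimulated genes are genes whose transcription rises when a cell receives an interferon signal. A list of 40 such mouse genes was followed in bone marrow hematopoietic progenitor cells. Each gene was named by symbol and found by matching the Ensembl identifiers of the deposited table to the GENCODE M21 annotation. All 40 were among the 38887 identifiers listed, and all 40 passed the filter on low counts that left 14346 genes for testing. No measured value entered the choice, although earlier results of these data were known when the list was drawn up.

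Every mouse of the study carried Lewis lung carcinoma, a transplantable mouse tumour, and no library from a tumour-free mouse was analysed here. One group had received vehicle for 2 weeks and has 5 libraries; its sample titles read untreated. The other group had received the CK2 inhibitor BMS-595 at 60 mg/kg for 2 weeks and also has 5 libraries, called CK2i. CK2 is a protein kinase that is active without an external signal. The comparison asks how the inhibitor altered the transcripts of these progenitors. The sources used here give neither the genetic strain, age and sex of the mice, nor the surface markers of the isolation, nor any pooling of animals. They do not say that replicates came from separate mice either, so p-values reflect only how far these samples spread, and that spread may be technical.

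Interferons act through cell surface receptors and the kinases bound to them. Type I interferons lead to a complex with STAT2 and IRF9 that binds the interferon-stimulated response element (ISRE), while interferon-gamma leads to binding at the gamma-activated sequence (GAS). The products of the target genes sense or degrade viral nucleic acid, block viral entry and assembly, or feed back on the pathway. In bone marrow, interferon signals are known to act on hematopoietic stem and progenitor cells as well as on mature immune cells.

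Promoter windows from RefSeq (GRCm38.p6, the assembly also called mm10) were at hand for 31 of the 40 genes, and 9 (Oas2, Rtp4, Mx1, Zbp1, Dhx58, Ifi204, Mx2, Usp18 and Parp14) had none in the table. The 250 bases before each RefSeq start were searched on both strands for the ISRE core GAAANNGAAA, whose reverse is TTTCNNTTTC, and for the palindromic GAS letters TTCNNNGAA. The ISRE core was found in 16 of the 31 genes (51.6%), against 936 of 27025 genes in the whole promoter table (3.46%). GAS letters were found in 9 of the 31 (29.0%), against 8.13% of all genes. Both motifs stood before 4 genes and neither before 10, and 1 ISRE core, in Bst2, overlapped a GAS match. The 6 stretches below, each the 150 bases before a start and free of annotated exons, show arrangements met among the 40 genes. Of the genes shown, Oas1g, Oas1a and Oasl2 were called in the main test below, and Isg15, Igtp and Irf1 were not. Capitals mark the motif matches, and the stretches read 5′ to 3′ on the gene's strand.
Oas1g (chr5:120887614-120887763, minus strand): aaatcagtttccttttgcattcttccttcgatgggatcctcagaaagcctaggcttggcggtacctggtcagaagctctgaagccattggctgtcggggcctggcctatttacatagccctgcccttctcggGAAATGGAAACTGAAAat
Oas1a (chr5:120907526-120907675, minus strand): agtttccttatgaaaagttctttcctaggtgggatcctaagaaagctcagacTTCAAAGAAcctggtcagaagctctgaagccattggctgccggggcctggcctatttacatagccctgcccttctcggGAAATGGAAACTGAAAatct
Isg15 (chr4:156200819-156200968, minus strand): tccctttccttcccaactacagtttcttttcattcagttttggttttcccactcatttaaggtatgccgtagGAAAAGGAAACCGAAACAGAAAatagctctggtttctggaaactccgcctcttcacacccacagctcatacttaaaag
Igtp (chr11:58199406-58199555, plus strand): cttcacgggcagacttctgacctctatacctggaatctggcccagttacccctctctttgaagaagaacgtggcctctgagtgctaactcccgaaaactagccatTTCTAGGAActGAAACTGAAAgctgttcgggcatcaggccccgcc
Irf1 (chr11:53769864-53770013, plus strand): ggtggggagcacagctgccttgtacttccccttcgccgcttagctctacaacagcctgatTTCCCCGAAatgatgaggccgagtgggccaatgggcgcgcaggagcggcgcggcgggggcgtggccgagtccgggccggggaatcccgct
Oasl2 (chr5:114896784-114896933, plus strand): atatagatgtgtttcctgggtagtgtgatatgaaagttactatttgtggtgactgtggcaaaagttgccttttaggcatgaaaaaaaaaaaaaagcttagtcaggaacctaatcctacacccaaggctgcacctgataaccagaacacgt
Oas1g and Oas1a, neighbouring copies of an oligoadenylate synthetase gene, share a run of overlapping ISRE cores just before the start, at -18 to -3 and -20 to -5. Oas1a has GAS letters at -98 to -90 as well. Isg15 has 3 overlapping ISRE cores between -78 and -57. Igtp, an interferon-inducible GTPase gene, has GAS letters at -45 to -37 beside an ISRE core at -34 to -25, and the transcription factor gene Irf1 has GAS letters alone, at -90 to -82 of the first of its 2 windows. Oasl2 holds no match to either set of letters in its window. Of the 39 windows of these 31 genes 20 held bases of an annotated GENCODE exon, and 3 lay wholly in exon, so not every searched base is upstream of transcription. A match is a description of letters and not a measured binding site.

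**Figure D1:**
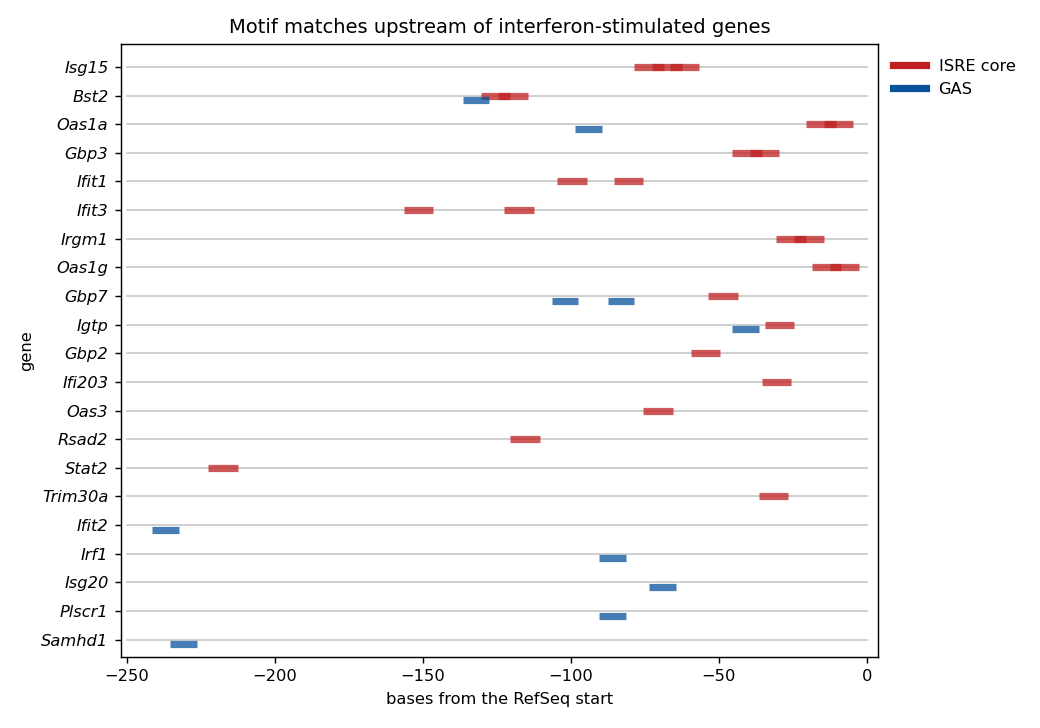
Positions of ISRE core (red) and GAS (blue) matches in the 250 bases before the RefSeq start, on the x axis in bases, for the 21 genes (y axis) with a match. Matches of the ISRE core lie between -222 and -3, and Isg15 has 3 overlapping ones.

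Each vehicle library held 37569160 to 43636152 estimated counts and each CK2i library 34127674 to 40811539. CK2i 2 and CK2i 5 stood apart from the other libraries on the first principal component of all genes (40.8% of the variance), with scores of 43.3 and 43.7, while the highest score among the other 8 was 12.5 (CK2i 4). Results below are therefore given by library and, where they rest on these libraries, also without them. The labels give no sequencing date or batch. Levels are the deposited FPKM, fragments scaled by transcript length and sequencing depth, which can be compared between genes. Differences between groups are log2 differences of TMM-scaled counts, CK2i minus vehicle, from edgeR's quasi-likelihood test across all 14346 genes, called at a Benjamini-Hochberg adjusted p under 0.05.

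In CK2i libraries 6 of the 40 interferon-stimulated genes were higher and 1 was lower, where 6.43% of all genes tested were called higher and 6.76% lower. The 6 (15.0%) were the oligoadenylate synthetase genes Oas1a, Oas1g and Oasl2, the RNA sensor gene Dhx58, the DNA sensor gene Ifi204 and the ADP-ribosyltransferase gene Parp14, and the 1 that fell (2.5%) was Plscr1, a phospholipid scramblase. The log2 difference was above 0 for 36 of 40 (90%), against 49.8% of all genes, with a median of 0.40 against -0.0006. An unadjusted p under 0.05 with a higher level in CK2i was reached by 22 of the 40, and by 17.9% of all genes. The same 17.9% is the share to set beside the counts of genes higher at an unadjusted p given below by group. For genes called higher by DESeq2, a second test, that share is 11.8%. For 4 genes (Oas1g, Oasl2, Ifi204 and Parp14) every CK2i FPKM lay above every vehicle FPKM, as for 5.58% of all genes, and for Plscr1 every CK2i value lay below, as for 4.36%. In bulk RNA, fewer or more cells of a type and less or more RNA per cell cannot be told apart.

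How many genes were called rested on single libraries. Without CK2i 5, 1 of the 40 was called higher (Oas1g) where 1.33% of all genes were, 1 was called lower (Plscr1) where 1.76% were, and the median fell to 0.24. Without CK2i 2 the count was also 1 (Oas1g, where 1.84% of all genes were called), with Plscr1 again lower (2.44%). Leaving out vehicle 1, 3, 4 or 5 also left Oas1g alone, beside 1.26%, 2.44%, 1.64% and 1.7% of all genes called higher. Leaving out vehicle 2 left Oas1g and Ifi204 (5.15% of all genes), and leaving out CK2i 1 left 4 (5.97%). Without CK2i 3 the count was 11 and the share of all genes rose to 11.9%, while without CK2i 4 the count was 10 beside 6.03% of all genes. Of the 10 fits that left out 1 library, Ifi204 was called in 4, Oasl2 and Parp14 in 3 each, and Oas1a and Dhx58 in 2 each. Without both CK2i 2 and CK2i 5 the median was 0.10 and Parp14 was the 1 gene called higher, where 0.501% of all genes were called higher and 0.699% lower. Oas1g was called higher and Plscr1 lower in all 10, and Plscr1 was also called without CK2i 2 and CK2i 5 (-0.61, edgeR adjusted p = 0.00187), where Oas1g was at 0.77 and not called (adjusted p = 0.0883).

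**Figure D2:**
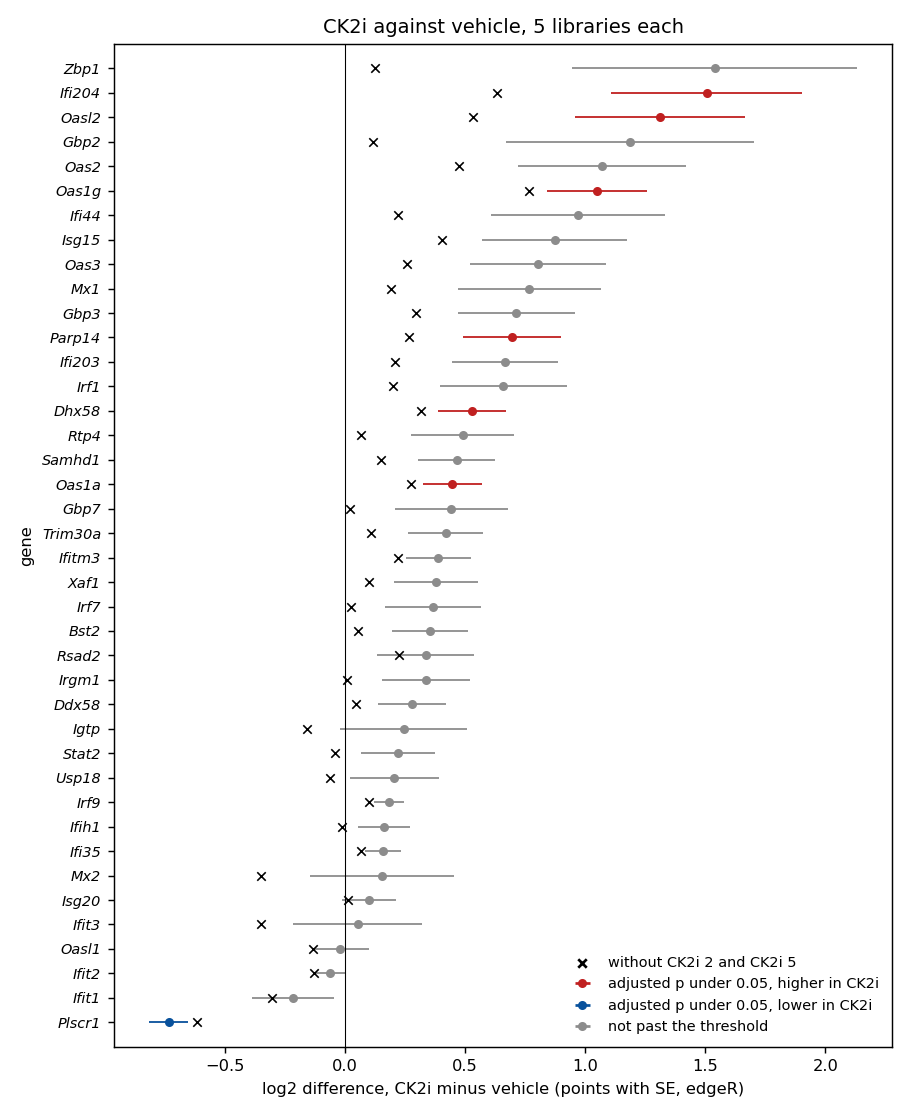
Log2 difference, CK2i minus vehicle, of each gene (x axis) with its SE from edgeR; red points passed the threshold upward, the blue point (Plscr1) downward, grey points did not pass, and crosses give the value without CK2i 2 and CK2i 5. Most crosses lie closer to 0 than the points, and Plscr1 keeps a value of -0.61.

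The levels spanned a wide range. Ifitm3, a membrane protein that blocks the entry of viruses, had the highest mean over the 10 libraries at 186 FPKM. Bst2, or tetherin, followed at 65.2 FPKM, the GTPase genes Irgm1 and Igtp at 46.0 and 38.7 FPKM, and Samhd1 at 38.2 FPKM. At the low end Mx2 was at 0.850 FPKM and Ifit3 at 0.753 FPKM. The ranges of Ifitm3 (138 to 295 FPKM over all libraries) and Bst2 (51.9 to 103 FPKM) did not overlap, while Bst2 and its next neighbour Irgm1 (37.9 to 80.0 FPKM) did.

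**Figure D3:**
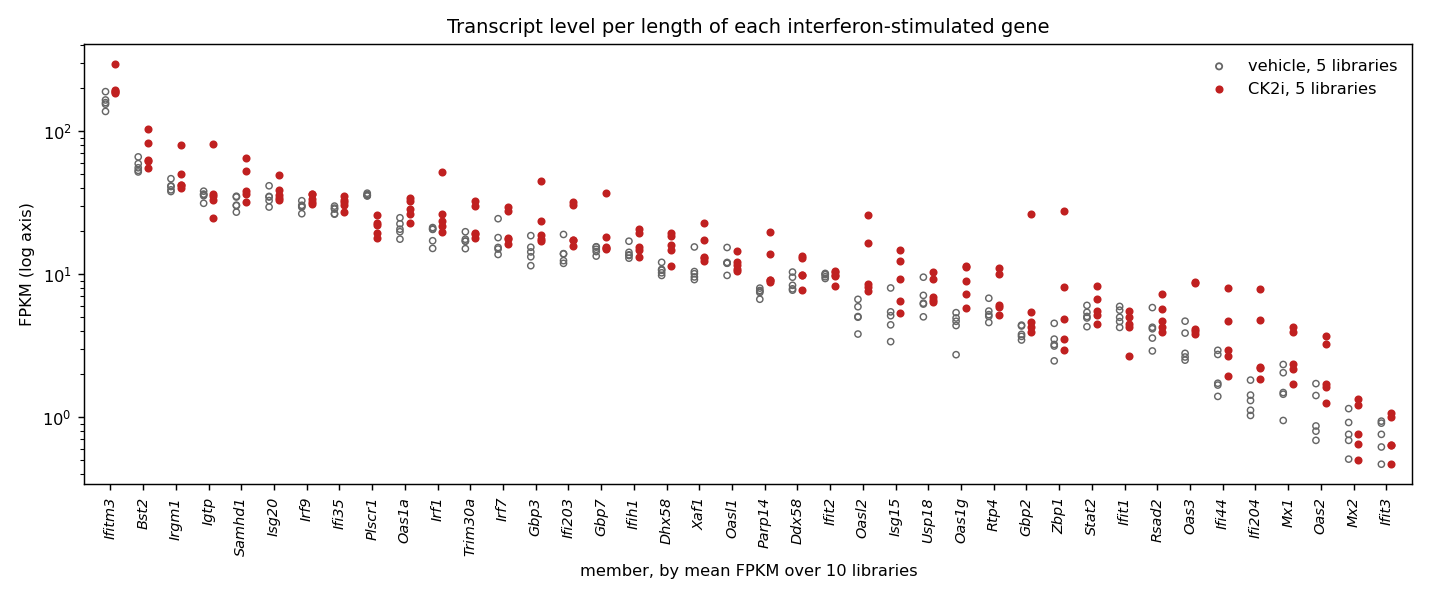
FPKM of each gene (log axis) in the 5 vehicle libraries (open circles) and the 5 CK2i libraries (red), ordered by the mean over 10 libraries. Ifitm3 is highest at 186 FPKM and Ifit3 lowest at 0.753 FPKM.

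All 4 transcription factor genes of the list were above every vehicle library in CK2i 2 and CK2i 5 on log2 CPM, where 34.35% and 33.54% of all genes were. In edgeR 0 of 4 passed. Irf9, the DNA-binding subunit of the complex that recognises the ISRE, had the highest level of the 4. It was at 26.5, 29.5, 30.4, 29.9 and 32.7 FPKM in vehicle libraries 1 to 5 and at 33.5, 36.4, 32.2, 31.1 and 36.5 FPKM in CK2i libraries 1 to 5. CK2i 1, 2 and 5 lay above all vehicle libraries, CK2i 3 and CK2i 4 did not, and the log2 difference was 0.18 ± 0.06 (SE, edgeR adjusted p = 0.0711). Irf1, an activator of interferon-gamma targets, was at 15.2, 21.2, 20.6, 20.8 and 17.1 FPKM in vehicle libraries 1 to 5 and at 19.7, 26.5, 23.7, 21.6 and 52.1 FPKM in CK2i libraries 1 to 5. The CK2i 5 value stood far above the other 9 libraries, and the log2 difference was 0.66 ± 0.26 (SE, edgeR adjusted p = 0.106). It came to 0.30 without CK2i 5 and to 0.20 without both CK2i 2 and CK2i 5. For Irf7, the amplifier of type I interferon transcription, and Stat2, the transducer specific to type I and type III signals, the differences were 0.37 and 0.22 (edgeR adjusted p = 0.215 and 0.326). The Irf7 value came to 0.03 and the Stat2 value turned to -0.04 without CK2i 2 and CK2i 5. At an unadjusted p under 0.05, 2 of the 4 (Irf1 and Irf9) were higher, and DESeq2 called 1 (Irf9).

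In the oligoadenylate synthetase (OAS) family, whose enzymes make the messenger that activates RNase L when they meet double-stranded RNA, 3 of 6 genes rose. Oas1g (ENSMUSG00000066861; chromosome 5, 120876142 to 120887613, minus strand) was at 4.38, 4.69, 2.74, 5.39 and 4.95 FPKM in vehicle libraries 1 to 5 and at 8.99, 11.4, 5.77, 7.25 and 11.2 FPKM in CK2i libraries 1 to 5. Every CK2i library lay above every vehicle library, and the mean rose from 4.43 ± 1.01 to 8.94 ± 2.47 FPKM (SD, n = 5 per group). The log2 difference was 1.05 ± 0.21 (SE, edgeR adjusted p = 0.0180). Oas1a (ENSMUSG00000052776; chromosome 5, 120896256 to 120907521, minus strand) was at 20.7, 22.5, 17.6, 19.8 and 24.8 FPKM in vehicle libraries 1 to 5 and at 28.4, 34.2, 26.2, 22.6 and 32.6 FPKM in CK2i libraries 1 to 5. CK2i 4 alone lay inside the vehicle range. The log2 difference was 0.45 ± 0.12 (SE, edgeR adjusted p = 0.0401). Without CK2i 2 and CK2i 5 it was 0.27 and did not pass (edgeR adjusted p = 0.223). As 47.6% of the 75-base words of Oas1a transcripts also occur in Oas1g, and 36.9% of those of Oas1g in Oas1a, reads can be shared between them and the separate values are uncertain. In the promoter stretches above, both genes carry the same run of ISRE cores before the start.

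Oasl2 (ENSMUSG00000029561; chromosome 5, 114896936 to 114912234, plus strand), a family member with ubiquitin-like domains, was at 3.82, 5.93, 5.06, 5.01 and 6.68 FPKM in vehicle libraries 1 to 5 and at 7.60, 16.7, 8.50, 8.19 and 25.9 FPKM in CK2i libraries 1 to 5. All CK2i values were above all vehicle values, and CK2i 5 and CK2i 2 were well above the other CK2i libraries. The log2 difference of 1.31 ± 0.35 (SE, edgeR adjusted p = 0.0390) came to 0.90 without CK2i 5, no longer past the threshold (adjusted p = 0.0717). Without both CK2i 2 and CK2i 5 it was 0.53 (edgeR adjusted p = 0.106). Oas2 and Oas3, the larger synthetases, differed by 1.07 and 0.81 (edgeR adjusted p = 0.0625 and 0.0760). In FPKM, only CK2i 2 and CK2i 5 lay above the vehicle range for both genes. The differences came to 0.48 and 0.26 without these libraries. Oasl1, known to inhibit translation of Irf7, differed by -0.02 ± 0.12 (SE, edgeR adjusted p = 0.929), and its CK2i values (10.5 to 14.5 FPKM) lay within those of vehicle (9.82 to 15.4 FPKM).

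The IFIT genes, whose proteins bind viral RNA lacking host cap marks, did not pass, and 0 of 3 reached an unadjusted p under 0.05 in edgeR or passed in DESeq2. Ifit2 was the highest of them. It was at 9.94, 9.34, 9.61, 10.1 and 10.01 FPKM in vehicle libraries 1 to 5 and at 9.95, 10.5, 8.33, 10.3 and 9.71 FPKM in CK2i libraries 1 to 5. The groups overlapped, and the log2 difference was -0.06 ± 0.07 (SE, edgeR adjusted p = 0.547). Ifit1 was at 4.25 to 5.96 FPKM in vehicle and 2.70 to 5.56 FPKM in CK2i, with its lowest value in CK2i 4, and differed by -0.22 ± 0.17 (SE, edgeR adjusted p = 0.388). Ifit3, with a highest value of 1.08 FPKM, differed by 0.05 (edgeR adjusted p = 0.907), and its sign turned when vehicle 2, vehicle 3, CK2i 2 or CK2i 5 was left out. Of the 75-base words of Ifit3, 41.1% occur in its copy Ifit3b, so its value is uncertain. Ifit1 and Ifit3 each have 2 ISRE cores in the searched window. Whether the IFIT genes differ from the OAS family in response was not tested.

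Among the further antiviral effectors, 0 of 5 passed in edgeR, while 2 (Mx1 and Samhd1) had an unadjusted p under 0.05 and were called by DESeq2. Samhd1, which depletes the nucleotides needed for reverse transcription, had the highest mean over the 10 libraries, while in vehicle libraries Isg20 was higher (34.7 against 31.5 FPKM). Samhd1 was at 27.2, 34.7, 30.2, 35.1 and 30.4 FPKM in vehicle libraries 1 to 5 and at 38.1, 52.7, 31.9, 36.7 and 64.7 FPKM in CK2i libraries 1 to 5. CK2i 5 and CK2i 2 were highest, CK2i 3 lay inside the vehicle range, and the log2 difference was 0.47 ± 0.16 (SE, edgeR adjusted p = 0.0722). It came to 0.15 without CK2i 2 and CK2i 5. Mx1, a dynamin-like GTPase that traps viral particles, differed by 0.77 (edgeR adjusted p = 0.0982) and was higher in CK2i 2 and CK2i 5, at 4.26 and 3.95 FPKM, than in any other library (at most 2.36 FPKM). The Mx1 difference came to 0.19 without CK2i 2 and CK2i 5. Its relative Mx2 differed by 0.16 (adjusted p = 0.740), and by -0.05 without CK2i 2. Rsad2, or viperin, which makes a chain-terminating nucleotide, differed by 0.34 (0.255), with its highest value in CK2i 2, and the exonuclease gene Isg20 by 0.10 (0.542).

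The ubiquitin-like modifier Isg15 was at 5.13, 5.46, 3.38, 4.43 and 8.02 FPKM in vehicle libraries 1 to 5 and at 6.47, 12.4, 9.33, 5.37 and 14.9 FPKM in CK2i libraries 1 to 5. CK2i 2, 3 and 5 lay above all vehicle libraries, CK2i 1 and CK2i 4 lay below the highest of them, and the log2 difference of 0.87 ± 0.30 (SE, edgeR adjusted p = 0.0732) did not pass, although DESeq2 called it. The Isg15 difference came to 0.40 without CK2i 2 and CK2i 5. Usp18, the protease that removes Isg15 from proteins and restrains the type I receptor, differed by 0.21 ± 0.19 (SE, edgeR adjusted p = 0.453), and by -0.06 without CK2i 2 and CK2i 5. Of these 2 genes, 0 passed in edgeR and 1 (Isg15) had an unadjusted p under 0.05.

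Of 4 nucleic acid sensor genes 1 rose. Dhx58 (ENSMUSG00000017830; chromosome 11, 100694884 to 100704271, minus strand) encodes LGP2, the RIG-I-like receptor without a signalling domain. It was at 9.81, 10.7, 10.2, 10.8 and 12.1 FPKM in vehicle libraries 1 to 5 and at 15.98, 19.5, 14.8, 11.4 and 18.5 FPKM in CK2i libraries 1 to 5. CK2i 4 lay inside the vehicle range and the other 4 above it, and the mean rose from 10.7 ± 0.870 to 16.04 ± 3.19 FPKM (SD, n = 5 per group). The log2 difference was 0.53 ± 0.14 (SE, edgeR adjusted p = 0.0377). Without CK2i 2 and CK2i 5 it was 0.32 and did not pass (edgeR adjusted p = 0.182). Ifih1, or MDA5, the sensor of long double-stranded RNA, was at 13.5, 14.2, 12.96, 13.7 and 17.03 FPKM in vehicle libraries 1 to 5 and at 15.4, 19.3, 13.2, 14.7 and 20.7 FPKM in CK2i libraries 1 to 5. CK2i 2 and CK2i 5 were above the vehicle range and the other 3 inside it, and the log2 difference was 0.16 ± 0.11 (SE, edgeR adjusted p = 0.301). Ddx58, or RIG-I, differed by 0.28 (adjusted p = 0.179), and by 0.05 without CK2i 2 and CK2i 5. Zbp1, a sensor of Z-form nucleic acid that can start necroptosis, was at 2.48, 3.52, 3.23, 3.15 and 4.54 FPKM in vehicle libraries 1 to 5 and at 2.97, 8.21, 4.88, 3.54 and 27.9 FPKM in CK2i libraries 1 to 5. CK2i 5 lay far above the rest, followed by CK2i 2, and the largest log2 difference of the list, 1.54 ± 0.59 (SE, edgeR adjusted p = 0.0952), came to 0.54 without CK2i 5.

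Of the p200 family, whose HIN domains bind DNA, Ifi204 (ENSMUSG00000073489; chromosome 1, 173747293 to 173766943, minus strand) rose. It was at 1.03, 1.82, 1.12, 1.31 and 1.43 FPKM in vehicle libraries 1 to 5 and at 2.21, 4.82, 1.85, 2.24 and 7.91 FPKM in CK2i libraries 1 to 5. Every CK2i library was above every vehicle library, with CK2i 3 closest to them and CK2i 5 highest. The mean rose from 1.34 ± 0.310 to 3.81 ± 2.58 FPKM (SD, n = 5 per group), and the log2 difference was 1.51 ± 0.40 (SE, edgeR adjusted p = 0.0364). Without CK2i 2 and CK2i 5 the difference was 0.63 and did not pass (edgeR adjusted p = 0.113). Ifi203 was at 12.4, 18.98, 13.9, 13.9 and 11.9 FPKM in vehicle libraries 1 to 5 and at 17.5, 30.6, 15.8, 17.4 and 32.03 FPKM in CK2i libraries 1 to 5. CK2i 2 and CK2i 5 were above all other libraries and the rest overlapped, and the log2 difference was 0.67 ± 0.22 (SE, edgeR adjusted p = 0.0641). It came to 0.21 without CK2i 2 and CK2i 5. The genes of this family are close copies: 13.2% of the 75-base words of Ifi204 occur in another gene, 11.3% in Ifi211, and 5.71% of those of Ifi203 do, so their values are uncertain one by one.

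Among 4 genes of membrane proteins edgeR called Plscr1 lower and none higher. Plscr1 (ENSMUSG00000032369; chromosome 9, 92249750 to 92272278, plus strand) encodes phospholipid scramblase 1, a lipid-binding membrane protein induced by interferon. It was at 35.3, 35.7, 36.1, 35.4 and 36.9 FPKM in vehicle libraries 1 to 5 and at 22.97, 19.3, 22.3, 25.9 and 18.01 FPKM in CK2i libraries 1 to 5. The vehicle libraries lay within 2 FPKM of each other, and each CK2i library was below all of them, with CK2i 5 and CK2i 2 lowest and CK2i 4 closest. The mean went from 35.9 ± 0.643 to 21.7 ± 3.12 FPKM (SD, n = 5 per group), and the transcript fell by 0.73 ± 0.08 log2 (SE, edgeR adjusted p = 0.00211). Of its 75-base words 6.53% occur in another gene. The RefSeq window holds GAS letters at -90 to -82 and no ISRE core, but all its 250 bases lie in annotated GENCODE exon, and GENCODE places the start of the gene further upstream.

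The other 3 genes of membrane proteins did not pass in edgeR, although all 3 were higher at an unadjusted p under 0.05 and DESeq2 called Ifitm3. Ifitm3 was at 165, 155, 138, 159 and 189 FPKM in vehicle libraries 1 to 5 and at 189, 192, 194, 186 and 295 FPKM in CK2i libraries 1 to 5. CK2i 4 lay below the highest vehicle library and CK2i 1 just above it, while CK2i 5 was the highest by a wide margin, and the log2 difference was 0.39 ± 0.14 (SE, edgeR adjusted p = 0.0734). Bst2, or tetherin, which holds budding virions at the cell surface, differed by 0.35 (adjusted p = 0.140), and Rtp4, a chaperone-like membrane protein gene, by 0.49 (0.131). For both, CK2i 2 and CK2i 5 were above all other libraries, and without them the differences came to 0.06 for Bst2 and 0.07 for Rtp4.

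The interferon-inducible GTPase genes encode proteins that act in defence against intracellular microbes. All 5 were above every vehicle library in CK2i 5 on log2 CPM, where 33.54% of all genes were. Of the 5, 0 passed in edgeR, 2 (Gbp2 and Gbp3) had an unadjusted p under 0.05, and DESeq2 called Gbp3 and gave no adjusted p for Gbp2. Irgm1, the most abundant, was at 41.1, 41.5, 37.9, 38.9 and 46.6 FPKM in vehicle libraries 1 to 5 and at 40.1, 50.2, 41.8, 41.9 and 80.03 FPKM in CK2i libraries 1 to 5. CK2i 5 lay far above every other library and CK2i 2 slightly above the vehicle range, with CK2i 1, 3 and 4 inside it, and the log2 difference was 0.34 ± 0.18 (SE, edgeR adjusted p = 0.211). The Irgm1 difference came to 0.01 without CK2i 2 and CK2i 5. Gbp2 was at 3.47, 4.41, 3.68, 3.80 and 4.35 FPKM in vehicle libraries 1 to 5 and at 4.30, 5.41, 4.65, 3.97 and 26.5 FPKM in CK2i libraries 1 to 5. Outside CK2i 5 it did not exceed 5.41 FPKM, and its log2 difference of 1.19 ± 0.52 (SE, edgeR adjusted p = 0.130) came to 0.22 without that library. Igtp, or Irgm3, was at 36.1, 35.4, 38.1, 31.4 and 36.3 FPKM in vehicle libraries 1 to 5 and at 34.98, 32.95, 36.5, 24.9 and 80.9 FPKM in CK2i libraries 1 to 5. Its log2 difference was 0.24 ± 0.26 (SE, edgeR adjusted p = 0.535) with all libraries and -0.14 without CK2i 5, so the direction rested on that library. Gbp3 and Gbp7 differed by 0.71 and 0.44 (adjusted p = 0.0702 and 0.202), and by 0.30 and 0.02 without CK2i 2 and CK2i 5. Igtp overlaps Irgm2 on the same strand and shares 7.80% of its 75-base words with it, and 11.3% of those of Gbp7 occur elsewhere, so both are uncertain.

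Of the remaining regulators Parp14 (ENSMUSG00000034422; chromosome 16, 35832874 to 35871544, minus strand) rose. It was at 6.69, 7.70, 7.62, 7.46 and 8 FPKM in vehicle libraries 1 to 5 and at 9.11, 13.9, 8.82, 9.10 and 19.6 FPKM in CK2i libraries 1 to 5. All CK2i values lay above all vehicle values, CK2i 5 and CK2i 2 most, and the mean rose from 7.49 ± 0.490 to 12.1 ± 4.70 FPKM (SD, n = 5 per group). The log2 difference of 0.70 ± 0.20 (SE, edgeR adjusted p = 0.0477) came to 0.27 without CK2i 2 and CK2i 5, where it passed (adjusted p = 0.0371). Ifi35, a leucine zipper protein, had the highest level of its group. It was at 29.02, 28.6, 26.3, 26.5 and 29.96 FPKM in vehicle libraries 1 to 5 and at 30.5, 33.2, 32.2, 27.2 and 35.4 FPKM in CK2i libraries 1 to 5. CK2i 4 lay inside the vehicle range and the others above it, by small margins, and the log2 difference was 0.16 ± 0.07 (SE, edgeR adjusted p = 0.153). Trim30a, a ubiquitin ligase gene, Ifi44 and the pro-apoptotic Xaf1 differed by 0.42, 0.97 and 0.38 (adjusted p = 0.0881, 0.0889 and 0.149). Their differences came to 0.11, 0.22 and 0.10 without CK2i 2 and CK2i 5.

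**Figure D4:**
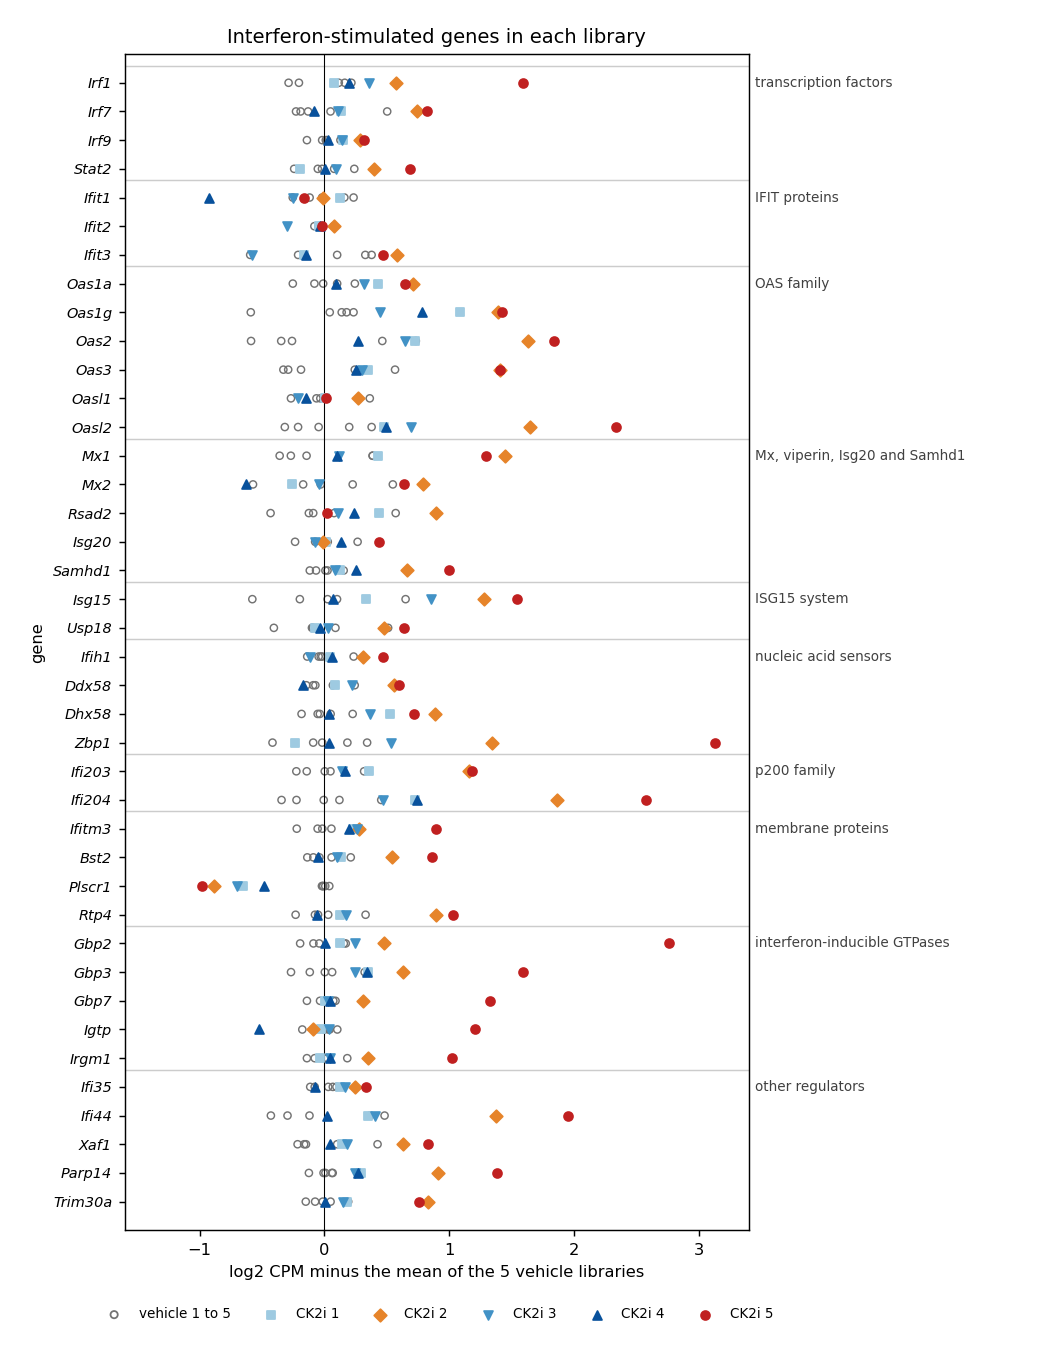
Log2 CPM minus the mean of the 5 vehicle libraries (x axis) of each of the 40 genes (y axis, grouped by role) in each library; open circles are vehicle libraries and filled symbols are CK2i libraries. CK2i 5 (red) or CK2i 2 (orange) is the highest CK2i library for most genes, and all CK2i libraries are left of vehicle for Plscr1.

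The treated libraries differed from each other in these genes. In FPKM, CK2i 5 was the highest CK2i library for 27 of the 40 genes, CK2i 2 for 11, CK2i 1 and CK2i 4 for 1 each and CK2i 3 for 0. The same count was not made over all genes, where CK2i 2 and CK2i 5 also stood apart, so these numbers have no background share. The median log2 CPM of the 40 over the vehicle mean reached 0.88 for CK2i 5 and 0.63 for CK2i 2. The vehicle libraries ran from -0.14 to 0.24 by the same measure, and CK2i 1, CK2i 3 and CK2i 4 stood at 0.13, 0.15 and 0.04. CK2i 2 and CK2i 5 therefore lay above the vehicle range and the other 3 inside it. On log2 CPM, 35 of the 40 genes in CK2i 5 and 33 in CK2i 2 exceeded all vehicle libraries, where 33.54% and 34.35% of all genes did. In CK2i 1, 3 and 4 the numbers were 11, 13 and 6, beside 22.2%, 20.4% and 24.8% of all genes. At least 2-fold over the vehicle mean stood 18 genes in CK2i 5 and 10 in CK2i 2, beside 4.66% and 5.80% of all genes. In CK2i 1 this held for Oas1g alone, and in CK2i 3 and CK2i 4 for 0 genes.

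The groups of genes stood at different heights in CK2i 2 and CK2i 5. The OAS family stood at medians of 1.40 in CK2i 2 and 1.42 in CK2i 5, and at 0.26 to 0.45 in the other CK2i libraries. The nucleic acid sensors stood at 0.72 and 0.66. For the GTPases the medians were 0.34 in CK2i 2 and 1.33 in CK2i 5, and 0.01 to 0.04 in the other CK2i libraries. The transcription factors stood at 0.48 and 0.75. The IFIT genes were at 0.08 in CK2i 2 and -0.02 in CK2i 5, inside the vehicle range of -0.25 to 0.23. With 1 library on each side, this contrast between CK2i 2 and CK2i 5 has no replicate and no test.

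**Figure D5:**
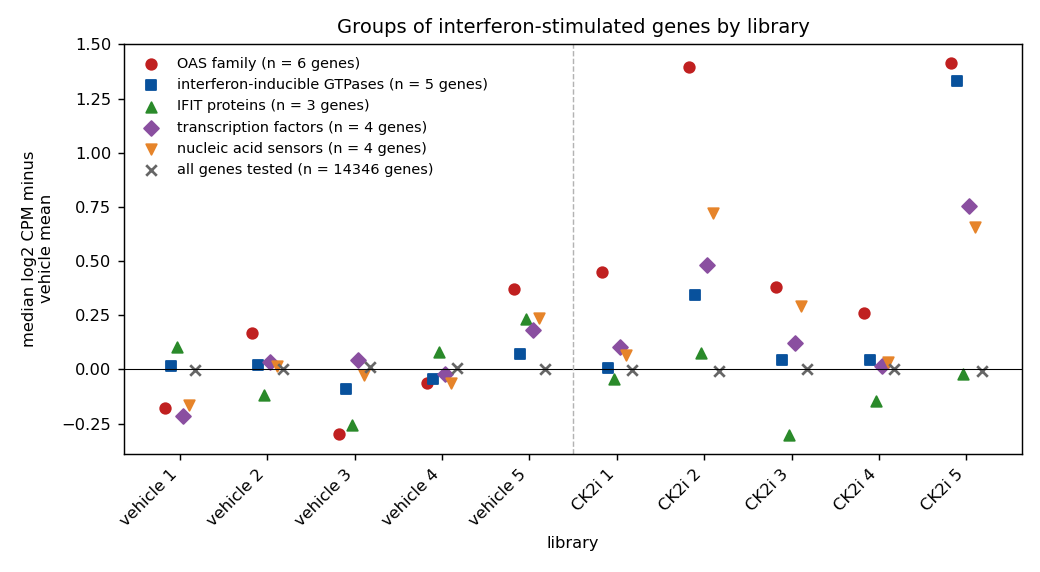
Median over genes of log2 CPM minus the vehicle mean (y axis) in each of the 10 libraries (x axis) for 5 groups of the genes and for all genes tested; symbols name the group. The OAS family is at 1.40 and 1.42 in CK2i 2 and CK2i 5, while the GTPases are at 0.34 and 1.33.

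Upstream of these genes stand the interferons, their receptors and transducers. Of a list of 49 interferons, receptors, transducers, sensors and feedback genes, 45 were matched and 29 were tested; 3 rose (10.3%) and 4 fell (13.8%), where 6.43% of all genes rose and 6.76% fell, and the median was 0.14. Interferon transcripts were at or near a count of 0: of the 16 ligand genes matched, 11 had no count in any library and none passed the filter. Ifng had the highest count, 10 in 1 library, and Ifnb1 had at most 1. A count of 0 allows for up to 3 counts in a library, by counting error only. The 10 libraries hold RNA of the isolated progenitors, and interferon from other cells was not measured.

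Among the receptors Ifnar1, a chain of the type I receptor, was at 14.2, 16.6, 15.7, 15.9 and 14.99 FPKM in vehicle libraries 1 to 5 and at 17.4, 19.3, 18.04, 18.6 and 20.2 FPKM in CK2i libraries 1 to 5. All CK2i libraries were above all vehicle libraries, the log2 difference was 0.26 ± 0.05 (SE, edgeR adjusted p = 0.0180), and the gene was called in all 10 fits without 1 library but not without CK2i 2 and CK2i 5 (adjusted p = 0.0728). Its partner Ifnar2 and the interferon-gamma receptor genes Ifngr1 and Ifngr2 differed by 0.16, 0.03 and 0.21 (edgeR adjusted p = 0.1205, 0.773 and 0.140). Ifnlr1, the type III receptor chain, fell by 0.76 ± 0.22 log2 (SE, edgeR adjusted p = 0.0477) from a level of 0.134 FPKM, the lowest of the genes called here. It was called in 1 of the 10 fits, and DESeq2 did not call it (adjusted p = 0.0674).

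The receptor-bound kinase gene Jak2, which serves the interferon-gamma receptor and cytokine receptors of blood cells, was at 38.5, 38.2, 46.6, 39.2 and 43.99 FPKM in vehicle libraries 1 to 5 and at 32.4, 30.6, 35.7, 34.01 and 33.7 FPKM in CK2i libraries 1 to 5. Every CK2i library was below every vehicle library, and it fell by 0.32 ± 0.06 log2 (SE, edgeR adjusted p = 0.0181), in all 10 fits. Jak1, shared by all interferon receptors, fell by 0.14 ± 0.04 log2 (SE, edgeR adjusted p = 0.0407), in 4 of them.

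On the sensing side Mb21d1, the older symbol of Cgas, which senses DNA in the cytosol, was at 8.09, 7.69, 7.95, 7.36 and 6.66 FPKM in vehicle libraries 1 to 5 and at 9.74, 11.7, 10.8, 8.98 and 11.7 FPKM in CK2i libraries 1 to 5. The groups did not overlap and the log2 difference was 0.48 ± 0.09 (SE, edgeR adjusted p = 0.0148), called in all 10 fits. Ikbke, a kinase that phosphorylates interferon regulatory factors, rose by 0.48 ± 0.12 (SE, edgeR adjusted p = 0.0347), in 5 of the 10. Mavs, the mitochondrial adaptor of the RNA sensors, fell by 0.35 ± 0.08 log2 (SE, edgeR adjusted p = 0.0260), also in 5. Without CK2i 2 and CK2i 5 these 7 pathway genes had edgeR adjusted p values of 0.0650 to 0.222, with the same signs. Their log2 differences were then 0.20 for Ifnar1, 0.36 for Mb21d1, 0.29 for Ikbke, -0.29 for Jak2, -0.14 for Jak1, -0.26 for Mavs and -0.62 for Ifnlr1.

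A second list held 54 further interferon-stimulated genes, of which 52 were matched and 50 tested. Of these 8 rose (16%, against 6.43% of all genes) and 0 fell (against 6.76% of all genes), with 1 lower in edgeR at an unadjusted p under 0.05 and 0 in DESeq2. The median was 0.33 and 47 of 50 differences were above 0, where all genes had a median of -0.0006 and 49.8% above 0. Ifi27l2a, an interferon-induced mitochondrial protein gene, rose by 1.03 ± 0.24 (SE, edgeR adjusted p = 0.0255), from 11.4 ± 2.65 to 23.2 ± 7.67 FPKM (SD, n = 5 per group). Adar, the enzyme that edits double-stranded RNA, rose by 0.25 ± 0.07 (SE, edgeR adjusted p = 0.0425). Ifi207, of the p200 family, and the Schlafen genes Slfn8, Slfn5 and Slfn2 rose by 1.11 ± 0.30, 0.67 ± 0.18, 0.70 ± 0.19 and 0.86 ± 0.24 (SE, edgeR adjusted p = 0.0385, 0.0386, 0.0416 and 0.0419). These 6 were called in 3 or 4 of the 10 fits that left out 1 library, and without CK2i 2 and CK2i 5 the 8 had edgeR adjusted p values of 0.118 to 0.221. The list was drawn up by family and carries no evidence independent of the 40 genes, since the libraries are the same.

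Markers of blood cell types were read in the same libraries. Progenitor genes were present. Kit was at 52.5 to 59.5 FPKM in vehicle and 43.6 to 56.5 FPKM in CK2i, and was called lower (log2 difference -0.26, edgeR adjusted p = 0.0302). The 8 progenitor markers summed to 1262 to 2287 and 2151 to 3188 FPKM, with 2 called higher (Mpo and Ms4a3) and 1 lower (Kit). Mpo made up 66.2% to 78.2% of each sum, and the sums without it were 425.9 to 583.5 and 563.8 to 694.5 FPKM. With and without Mpo, the progenitor sums were highest in CK2i 2 and CK2i 5. The 12 monocyte and macrophage markers summed to 241 to 467 FPKM in vehicle and 360.0 to 999.6 FPKM in CK2i, with 2 called higher (Cd14 and Adgre1). Their sums were highest in CK2i 5 and CK2i 2, at 999.6 and 731 FPKM, the same libraries in which the interferon-stimulated genes were highest. Of each sum 73.5% to 86.2% was Ly6c2, which was not called (edgeR adjusted p = 0.0705). Without it CK2i 5 and CK2i 2 were at 138 and 137 FPKM, the other CK2i libraries at 79.6 to 100.2 and vehicle libraries at 62.8 to 90.7 FPKM. Of the 12 monocyte and macrophage markers, 6 were higher in edgeR at an unadjusted p under 0.05 (17.9% of all genes), and DESeq2 also called Csf1r. The 9 neutrophil markers summed to 43.8 to 134 and 72.4 to 321 FPKM and were highest in CK2i 2 and CK2i 5. The 3 called higher were S100a8, Lcn2 and Mmp8, while Ltf differed by -0.62, not called. S100a8 was 47.05% to 73.64% of each sum. Without it CK2i 2 and CK2i 5 were at 96.85 and 66.1 FPKM and vehicle libraries at 18.8 to 64.5 FPKM. This order of libraries was not particular to monocyte and neutrophil markers. In CK2i 2 and CK2i 5 the plasmacytoid dendritic cell sums (105.3 and 104.4 FPKM) and the T and NK cell sums (108.3 and 110.9 FPKM) were also highest. Without Irf8 and Nkg7, the largest parts of those sums, vehicle 2 was above CK2i 2 for both lists. The megakaryocyte sums were lowest in CK2i 2 and CK2i 5, at 1153 and 1488 FPKM. The part of monocytes and neutrophils in the results was not tested.

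Of plasmacytoid dendritic cell genes, cells known as strong interferon producers, 0 of 7 tested rose and 1 (Ccr9) fell in edgeR. Runx2 was higher at an unadjusted p under 0.05 and was called by DESeq2. The sums were 62.9 to 101 and 72.9 to 105 FPKM, of which Irf8, a gene also in the pathway list, made up 60.2% to 71.5%. Without Irf8 the sums were 23.7 to 32.2 and 24.4 to 31.7 FPKM. Siglech, Pacsin1 and Klk1 were below 1 FPKM in every library. T and NK cell markers summed to 41.8 to 80.7 and 57.3 to 111 FPKM with 0 of 5 tested called in edgeR (at an unadjusted p under 0.05, Nkg7 was higher and Ncr1 lower, and DESeq2 called Nkg7), and the sums without Nkg7 were 3.56 to 6.36 and 3.86 to 7.2 FPKM. Cd3e, Cd3d, Cd3g, Cd8a, Gzma and Prf1 were below 1 FPKM in every library. B and plasma cell markers summed to 430 to 580 and 229 to 381 FPKM with 1 of 5 tested lower (Jchain), and the sums without Jchain were 28.6 to 35.8 and 26.04 to 37.1 FPKM. Ms4a1 and Pax5 stayed below 1 FPKM. Megakaryocyte markers summed to 2190 to 3608 and 1153 to 2618 FPKM with 3 of 6 lower, and erythroid markers to 308 to 477 and 451 to 669 FPKM with 3 of 6 higher. No marker of these lists had a count of 0 in all libraries, and the part of these cells in the results was not tested.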

How the data were processed

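RNA of hematopoietic progenitor cells was sequenced in 5 vehicle and 5 CK2i libraries (stranded total RNA kit, 75-base paired reads, per the labels' protocols). The deposited table holds, per gene and library, estimated counts and FPKM. Per the submitters' processing notes the authors used Bowtie2, RSEM 1.2.31 and the build mm10; DESeq2 is also named. The estimated counts are whole numbers, so the authors appear to have rounded them before deposit; RSEM divides reads that fit several genes between them. FPKM were deposited by the authors, scaled by transcript length and depth. Annotation, strand setting and filters were not given in the sources used here.

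Of 38887 identifiers 37570 matched GENCODE M21; 2 blank lines were left out. The main test was edgeR 4.0.16 (R 4.3.3): TMM, filterByExpr (minimum count 10), a two-sided quasi-likelihood test and Benjamini-Hochberg adjustment over 14346 genes, threshold 0.05. The SE is the log2 difference divided by the square root of F. The script was tested on simulated data. Log2 CPM used a prior count of 2. Replicates differed beyond sampling noise (chi-square per degree of freedom 10.96 or more). With an average biological coefficient of variation (edgeR) of 14.2%, spread between libraries limits precision more than counting does, except for genes near the filter. Alternatives were RLE size factors, no filter, a replicate block, DESeq2 1.42.0, limma 3.58.1 on log2(FPKM + 1) and log2(FPKM + 0.1), and leaving out each library; leaving out CK2i 2 and CK2i 5 together was added after seeing the data. The members and lists were chosen with earlier results of these data known. By rule, every gene called and the most abundant gene of each role group is given in all libraries; Irf1, Zbp1, Gbp2, Igtp and the order of libraries were added after their values were seen. Of the other lists, at most 6 called genes per direction and the interferon receptors are named; 1 further gene that the rule names is not reported here.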

Additional observations from a re-analysis of the deposited data

Results flagged for a closer look

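For 10 values, 1 library lay far from the other 4 of its group, with a gap to the nearest above 0.71 of the group's range (Dixon's 95% value). Of 80 groups of 5 FPKM values tested, chance alone gives about 1 in 20. In CK2i 5, 8 genes were high: Irf1 at 52.1 FPKM, Zbp1 at 27.9, Ifitm3 at 295, Gbp2 at 26.5, Gbp3 at 45.1, Gbp7 at 36.9, Igtp at 80.9 and Irgm1 at 80.0 FPKM. They take in all 5 GTPase genes of the list. The rule was not run over all genes, so the share of all genes flagged in CK2i 5 is not known. The other 2 values were in vehicle libraries: Ifi203 at 19.0 FPKM in vehicle 2 and Xaf1 at 15.5 FPKM in vehicle 5. The genes share libraries, so these values are not independent of each other.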

How the results depend on the processing

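Plscr1 was the 1 member called lower in every fit run. The count of members called higher (6) was 12 with the replicate block (5 of the 6 among them), 16 with DESeq2 (all 6 among them; 11.8% of all genes), 2 and 3 with limma on log2(FPKM + 1) and log2(FPKM + 0.1), 1 without CK2i 2 and CK2i 5, and 1 to 11 when 1 library was left out. The median of 0.40 was 0.24 to 0.49 when 1 library was left out, lowest without CK2i 5, and 0.10 without CK2i 2 and CK2i 5. Over all genes, 922 called higher became 457 with the block, 1708 with DESeq2, 606 with limma on log2(FPKM + 1), 73 without CK2i 2 and CK2i 5 and 182 to 1727 without 1 library. The 970 called lower became 1460 with DESeq2, 591 and 593 with limma at pseudocounts 1 and 0.1, 102 without both libraries and 254 to 1471 without 1. In the pathway list, 3 higher became 8 with DESeq2, 0 without both libraries and 2 to 7 without 1, and 4 lower became 2 without the filter, with the block and with limma at both pseudocounts, 0 without both libraries and 1 to 3 without 1. In the second list, 8 higher became 17 with DESeq2, 1 and 2 with limma at pseudocounts 1 and 0.1, 0 without both libraries and 0 to 16 without 1, and 0 lower became 0 to 1 without 1. Differences changed sign without CK2i 2 and CK2i 5 for Stat2 (-0.0392), Ifit3 (-0.3467), Mx2 (-0.3481), Usp18 (-0.0594), Ifih1 (-0.0098) and Igtp (-0.1559). Leaving out 1 library moved Ifit3 between -0.1099 and 0.1888, Oasl1 between -0.096 and 0.083, Mx2 between -0.0491 and 0.3168 and Igtp between -0.1393 and 0.3873. Fits with fewer libraries rest on fewer samples; for the other changes the cause was not tested. The sources used here do not say whether the replicate numbers pair the samples. Deviations of same-numbered libraries correlated at -0.16 to 0.23, over 0.1 for 2 of 5 numbers, and 2 of 5 CK2i libraries were closest to their own number. Such weak correlations show no clear pairing but cannot exclude it. RLE size factors changed no call among members. Depth limits most the genes with the lowest levels, Mx2 and Ifit3 among them.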

Other observations

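The second list holds 8 more interferon-inducible GTPase genes, picked out here after their values were seen. All 8 were highest in CK2i 5, and none passed in edgeR. Gbp4, Gbp8 and Gbp9 overlap each other on the same strand, and Irgm2 overlaps Igtp. Words shared with other genes were not counted for these 8. Reads may therefore be shared between them, and their separate values are uncertain. Tgtp1 was at 46.6 FPKM in CK2i 5 and at 2.90 to 6.96 FPKM in the other 9 libraries. Iigp1 was at 23.97 FPKM against 0.650 to 1.87, Irgm2 at 17.9 against 3.65 to 6.27, and Tgtp2 at 106 against 22.9 to 38.2. Ifi47 was at 92.2 FPKM against 47.98 to 58.9. Gbp4, Gbp8 and Gbp9 had low levels, at 0.72, 1.78 and 2.74 FPKM in CK2i 5 and at most 0.470, 0.570 and 0.660 FPKM elsewhere. Nlrc5, an activator of MHC class I genes, was at 37.04 FPKM in CK2i 5, 22.4 in CK2i 2 and at most 16.3 FPKM in the rest. The chemokine gene Cxcl10 was at 1.36 FPKM in CK2i 5 and 0.630 to 1.87 FPKM in the other libraries. CK2i 5 is 1 library, so these values have no replicate.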
